A study of Homo sapiens with 18 samples.

Results

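The data analysed here describe the change in RNA of HepG2 cells over their first 24 h at 1% oxygen. HepG2 is a human hepatoma cell line that keeps many traits of hepatocytes. The comparison takes the 3 HepG2 libraries labelled 24 h hypoxia and the 3 labelled 0 h, which makes 6 of the 18 libraries of the study. The other libraries are HepG2 after 48 h and APOA4-KO, a line grown from a single HepG2 clone after CRISPR-Cas9 editing of exons of APOA4, at 0 h, 24 h and 48 h, with 3 libraries in each of the 6 groups. Unless another group is named, all values below are from the unedited HepG2 cells, and "0 h" means cells labelled as controls with no treatment. No cells kept at normal oxygen for 24 h were analysed here, so the low oxygen and the added day in culture cannot be told apart. Whether the 3 libraries of a group came from separate cultures is not stated for these libraries, although the methods speak of independent experiments in general, and p-values therefore measure the spread between these libraries, which may be technical. The members of the comparison are all genes with enough counts to be tested, 19743 of the 61806 genes in the count table. Genes are grouped below by lists of known function, which were written with earlier results of these data known. Further members of the lists are named as examples after their values were seen.

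Cells sense oxygen through prolyl hydroxylases that mark the alpha subunits of the hypoxia-inducible factor (HIF) for destruction. When oxygen is low the marking slows, HIF accumulates, binds DNA at a short core motif and raises transcription of genes for glycolysis, pH control, blood vessel growth, collagen processing and its own hydroxylases. In the liver, low oxygen is known to shift cells from oxidation of fuels to glycolysis, and the liver is also the source of most plasma proteins, of bile acids and of much of the triglyceride and cholesterol that the body exports.

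The 250 bases before the annotated start of 3 genes are shown because these genes belong to the HIF target list used below and hold the HIF core motif, while their RNA behaved differently at 24 h. CA9 showed the largest increase of that list, LOX rose and carries several copies of the motif, and EGLN1 was close to its 0 h level at 24 h. The sequences are from RefSeq on GRCh38.p14, read 5′ to 3′ on the strand of the gene, with ACGTG and its reverse complement CACGT in capitals. The CA9 stretch is chr9:35673678-35673927 on the plus strand, the LOX stretch is chr5:122078260-122078509 on the minus strand and the EGLN1 stretch is chr1:231422288-231422537 on the minus strand.
CA9: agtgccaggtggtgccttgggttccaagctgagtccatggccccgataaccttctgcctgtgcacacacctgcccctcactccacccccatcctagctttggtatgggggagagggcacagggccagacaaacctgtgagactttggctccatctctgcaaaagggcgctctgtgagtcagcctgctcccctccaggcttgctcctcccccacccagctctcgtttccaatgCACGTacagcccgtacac
LOX: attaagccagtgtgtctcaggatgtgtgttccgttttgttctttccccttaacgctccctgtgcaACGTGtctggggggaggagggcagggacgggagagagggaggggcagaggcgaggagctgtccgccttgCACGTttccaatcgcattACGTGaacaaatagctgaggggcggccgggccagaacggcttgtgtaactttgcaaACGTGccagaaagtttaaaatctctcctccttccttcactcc
EGLN1: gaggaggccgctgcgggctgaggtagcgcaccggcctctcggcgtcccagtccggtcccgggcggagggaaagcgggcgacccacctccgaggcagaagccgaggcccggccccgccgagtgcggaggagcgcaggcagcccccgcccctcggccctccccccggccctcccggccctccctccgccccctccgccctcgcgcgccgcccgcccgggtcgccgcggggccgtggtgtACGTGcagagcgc
Counted from −1 at the base before the start, the motif began at −18 in CA9, at −13 in EGLN1 and at −185, −116, −98 and −42 in LOX. A promoter sequence was matched for 30 of the 37 genes of the HIF target list, and 17 of them (56.7%) held ACGTG on either strand. Of 12821 tested genes with a promoter, 22.7% held it, and of all 27305 promoters 18.7% did. The share was 22.8% (51 of 224) among the genes that were higher at 24 h by the limits given below and 19.2% (25 of 130) among those that were lower. When GCGTG on either strand was accepted as well, the shares were 80.0% for the HIF target list, 48.2% for the higher genes, 40.0% for the lower genes, 55.0% for all tested genes and 43.1% for all promoters. Where CACGTG occurs, both strands match and were counted as a single promoter. A match describes the letters of this window only.

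The libraries were similar in depth, with totals of 80852233 to 82601147 counts at 0 h and 79261514 to 91476613 at 24 h. Levels are given as CPM, the counts of a gene scaled to a common library size after TMM adjustment. Between any 2 replicates of HepG2 at 0 h or at 24 h, the Pearson correlation of log2 CPM across genes was 0.994 or 0.995. In these 6 libraries, counts of 4 occurred 2.66 to 3.05 times as often as the counts next to them. For counts of 8 this was 2.17 to 2.5 times and for counts of 12 it was 1.61 to 2.12 times. Low counts are therefore not plain tallies of read pairs, and the limits in counts used below are not numbers of read pairs. The 10 genes with the most counts took 13.1% to 13.2% of a library at 0 h and 16.4% at 24 h, and genes of the mitochondrial genome took 8.22% to 8.48% and 8.84% to 8.96%. All 10 hepatocyte markers listed were detected in every library, 8 of them higher and 2 lower at 24 h by the test used below, with albumin (ALB) at 13808 to 14145 CPM at 0 h and 15361 to 15584 CPM at 24 h. Of the markers of other cell types, 1 of 6 tested endothelial markers was higher (PECAM1), 1 of 6 stromal markers was higher (PDGFRB) and 2 were lower (ACTA2 and LUM), and 2 of 8 immune markers were higher (CD68 and LYZ). Levels of these markers differed widely. KDR, ERG, COL3A1, CD3E and CD163 were each at 0.484 CPM or less in every library, with KDR and ERG at 0 in some. Other markers were present in every library, with PECAM1 at 4.67 CPM or more and VWF at 6.05 CPM or more. The lowest library was at 26.5 CPM for PDGFRB, 35.5 CPM for CD68 and 93.3 CPM for ACTA2. PTPRC ranged from 0.0482 to 4.09 CPM at 0 h and from 3.21 to 7.60 CPM at 24 h and did not pass the test (edgeR adjusted p = 0.488). LUM was at 0.387 CPM or less at 0 h and at 0.0484 CPM or less at 24 h. LYZ, a lysozyme listed as an immune marker, was abundant, at 1042, 1037 and 1038 CPM at 0 h and 2002, 2014 and 2063 CPM at 24 h. Of its exon bases, 34.0% are overlapped by exons on the opposite strand.

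After 24 h, 608 genes (3.08% of those tested) were changed, which here means a log2 fold change of at least 1 in size and a Benjamini-Hochberg adjusted p under 0.05 in edgeR's quasi-likelihood test. Of these, 407 (2.06%) were higher and 201 (1.02%) were lower. Without the limit on the fold change, 2244 genes (11.4%) were higher and 3606 (18.3%) were lower at an adjusted p under 0.05, so most small changes were decreases and most large changes were increases. As these are bulk samples, fewer cells of a kind and less RNA per cell cannot be told apart. The median log2 fold change of all tested genes was −0.035. When libraries were scaled by their totals alone, without TMM, this median was −0.107, with 359 genes higher and 241 lower past both limits. The 3 libraries at 24 h did not overlap with the 3 at 0 h in 562 of the 608 changed genes, against 42.0% of all tested genes. Of the 608 genes, 433 had at least 10 counts in each of the 6 libraries and 194 changed by over 4-fold, 133 of them upward. In 52 changed genes all 3 libraries at 0 h had at most 3 counts, and in 32 all 3 libraries at 24 h did, so the fold changes of these genes depend on the fit and are not given. Protein-coding genes made up 418 of the changed genes (2.83% of 14766 tested), with 249 higher and 169 lower. Long noncoding genes made up 125 (4.62% of 2706), with 107 higher and 18 lower.

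**Figure D1:**
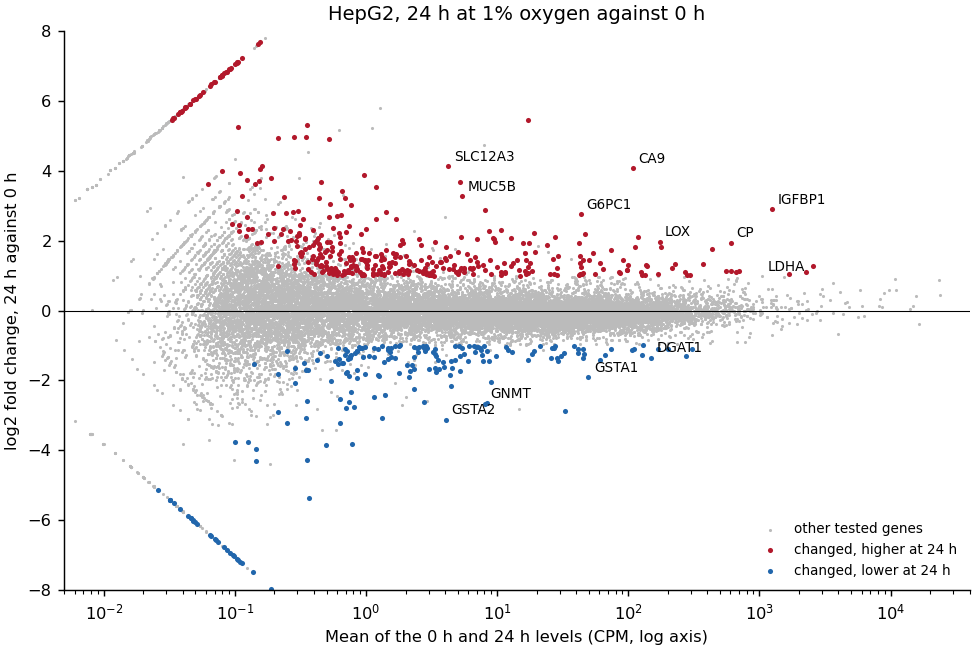
log2 fold change at 24 h against the mean level in CPM (log axis) for the tested genes of HepG2, each point being a gene, with the 407 changed genes that were higher in red and the 201 that were lower in blue. Large fold changes are most common at the left, at low levels, and 63 genes lie outside the axes.

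The largest changes were read from genes that passed the test, whose groups did not overlap, which averaged 500 counts or more in the group with the higher level and had no library below 10 counts. Among these, the 10 largest increases were in SLC12A3, CA9, MUC5B, IGFBP1, EDN1, G6PC1, HAL, MUC13, ANGPTL2 and CCL20. SLC12A3, the thiazide-sensitive sodium chloride cotransporter best known from the kidney, was at 0.771, 0.423 and 0.169 CPM at 0 h and at 8.90, 7.43 and 7.78 CPM at 24 h. This is a log2 fold change of 4.14 (standard error 0.33, edgeR adjusted p = 1.28e-08), and the 0 h libraries, at a low level, differed in ratio more than those at 24 h. CA9, a carbonic anhydrase of the cell surface that helps export acid, went from 13.2, 10.4 and 12.7 to 203, 199.6 and 209 CPM (4.08, standard error 0.06, adjusted p = 6.87e-19). Exons of a gene on the opposite strand overlap 38.5% of the exon bases of CA9, and the sources used here do not say whether the counting used strand. The binding protein of insulin-like growth factors IGFBP1 was at 289, 296 and 305 CPM and then at 2199, 2229.9 and 2204 CPM (2.90, standard error 0.07, adjusted p = 5.28e-16). The vasoconstrictor peptide gene EDN1 was at 1.76, 2.36 and 1.72 CPM and at 14.5, 15.9 and 12.6 CPM (2.88, adjusted p = 1.25e-10). In these 4 genes every 24 h library stood above every 0 h library, as the rule required.

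The other 6 of these genes were chosen by the same rule. The mucins MUC5B, which forms gels, and MUC13, which spans the membrane, rose from 1.01 ± 0.142 to 9.83 ± 1.16 CPM and from 2.97 ± 0.356 to 14.5 ± 1.05 CPM (SD, n = 3), or by 3.28 and 2.29 on the log2 scale. G6PC1, the catalytic subunit of glucose-6-phosphatase that releases glucose from hepatocytes, was at 10.1, 11.2 and 12.6 CPM at 0 h and at 78.1, 74.9 and 75.9 CPM at 24 h (2.76, standard error 0.06, edgeR adjusted p = 1.95e-16). HAL, which starts the breakdown of histidine, rose by 2.31, the secreted angiopoietin-like protein ANGPTL2 by 2.22 and the chemokine CCL20 by 2.18 (edgeR adjusted p of 4.55e-12, 8.19e-16 and 5.06e-16). The CCL20 libraries were at 16.9, 16.9 and 16.7 CPM at 0 h and 74.9, 77.5 and 76.9 CPM at 24 h, so the replicates differed by a few percent against a change of over 4-fold.

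The 10 largest decreases by the same rule were in GSTA2, GNMT, SYTL2, TRIM50, GSTA1, STAR, SSTR3, TRIM74, SMIM24 and MAB21L4. GSTA1 and GSTA2 are glutathione transferases of the hepatocyte that detoxify reactive compounds. GSTA1 was at 76.3, 78.9 and 80.4 CPM at 0 h and at 19.4, 22.6 and 20.4 CPM at 24 h (−1.92, standard error 0.07, edgeR adjusted p = 2.63e-13). GSTA2 was at 7.15, 7.38 and 7.27 CPM and at 0.546, 0.518 and 1.43 CPM (−3.13, standard error 0.56, adjusted p = 2.46e-04). As these genes are close in sequence, reads could have been assigned to either, and the same holds for TRIM50 and TRIM74. GNMT, which uses up S-adenosylmethionine in the methylation of glycine, was at 14.6, 13.9 and 13.1 CPM and at 2.39, 2.10 and 2.05 CPM (−2.67, adjusted p = 2.01e-09). SYTL2, which tethers secretory vesicles, was at 6.78, 7.09 and 7.89 CPM and at 1.66, 1.64 and 1.54 CPM (−2.17, adjusted p = 5.59e-09). STAR, which moves cholesterol into mitochondria, fell by 1.83 on the log2 scale and the somatostatin receptor SSTR3 fell by 1.74 (adjusted p of 3.82e-09 and 1.79e-09). The changes of TRIM50, TRIM74, SMIM24 and MAB21L4 were −2.06, −1.64, −1.46 and −1.46. That the groups did not overlap in these 10 genes was required by the rule.

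**Figure D2:**
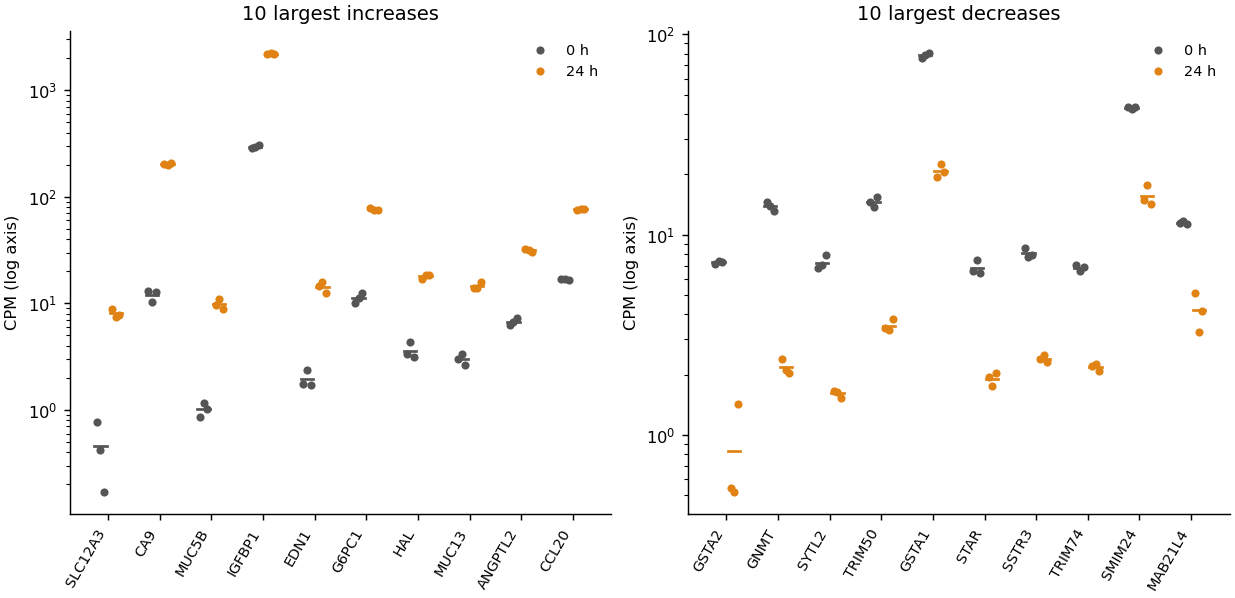
CPM (log axis) of the 10 largest increases and the 10 largest decreases in HepG2, with a point for each library at 0 h (grey) and 24 h (orange) and a line at the mean of 3 libraries. In each of the 20 genes the points of the 2 groups lie apart, as the rule for choosing them required. GSTA2 at 24 h and SLC12A3 at 0 h show the widest spread between libraries.

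Of the 37 HIF target genes listed, all were tested, 34 were higher at an adjusted p under 0.05 and none was lower, and 13 were past both limits. The median log2 fold change of the list was 0.86, against −0.035 for all tested genes. For this list and those below, the shares of all tested genes to set beside the counts were 11.4% higher and 18.3% lower. Besides CA9, the largest changes were in LOX, which cross-links collagen, at 72.0, 70.2 and 69.4 CPM and then 274, 272 and 282 CPM (1.97, standard error 0.03, edgeR adjusted p = 1.02e-18), and in EGLN3, an oxygen-sensing prolyl hydroxylase, at 11.2, 9.59 and 9.99 CPM and then 38.0, 37.9 and 38.0 CPM (1.89, adjusted p = 1.17e-15). NDUFA4L2, a mitochondrial protein that HIF is known to raise, changed by 1.68 (adjusted p = 0.00299) from 0.285, 0.411 and 0.651 to 1.92, 1.07 and 1.34 CPM. Not all listed targets had moved. EGLN1, the main oxygen-sensing hydroxylase, was at 41.6, 40.0 and 37.7 CPM at 0 h and 39.1, 39.3 and 39.2 CPM at 24 h (−0.019, standard error 0.05, adjusted p = 0.85), and the groups overlapped. DDIT4, an inhibitor of mTOR, was at 63.4, 65.1 and 67.9 CPM and 67.4, 68.4 and 66.4 CPM (0.041, adjusted p = 0.565), with 41.2% of its exon bases overlapped by exons on the opposite strand. CA12, another carbonic anhydrase of the cell surface, was below 1 CPM in every library and had an estimate of 0.38 (adjusted p = 0.717).

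Of the 12 genes of oxygen sensing, 3 (25.0%) were higher and 3 (25.0%) were lower, with a median of −0.072. Of all tested genes, 11.4% were higher and 18.3% lower. HIF1A, the alpha subunit whose protein is controlled by oxygen, was at 105, 105 and 104 CPM at 0 h and at 86.2, 83.6 and 87.1 CPM at 24 h, so that its RNA fell by 0.29 on the log2 scale (edgeR adjusted p = 3.44e-05). EPAS1, which encodes the other main alpha subunit, rose by 0.14 (adjusted p = 6.19e-06). Their partner ARNT fell by 0.25, the asparagine hydroxylase HIF1AN fell by 0.12, and CITED2, which competes with HIF for its coactivators, rose by 0.40 (adjusted p of 7.13e-05, 0.0108 and 8.37e-06). VHL, the ubiquitin ligase subunit that recognises hydroxylated HIF, had an estimate of 0.016 (adjusted p = 0.88). Among the E-box repressors, BHLHE40 rose by 1.45 and MXI1, an antagonist of MYC, by 0.65 (adjusted p of 5.28e-16 and 3.79e-06), and MYC itself rose by 0.49. Of the 13 genes of the MYC network and E-box repressors, 4 (30.8%) were higher and 2 (15.4%) lower.

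In glycolysis, 16 of 26 genes were higher and none was lower, with a list median of 0.55. The 4 genes past both limits were the glucose transporter SLC2A3, the hexokinase HK2, and PFKFB3 and PFKFB4, which make the activator of phosphofructokinase. HK2 was at 79.7, 76.5 and 81.8 CPM at 0 h and at 168, 171 and 168 CPM at 24 h (1.09, standard error 0.02, edgeR adjusted p = 1.22e-16). PFKFB4 rose by 1.10 and PFKFB3 by 1.03. LDHA, the lactate dehydrogenase that regenerates NAD from pyruvate, was at 710.4, 693 and 707 CPM and at 1361, 1392 and 1399.7 CPM (0.98, adjusted p = 3.65e-17), and PGK1 rose by 0.94. The ubiquitous glucose transporter SLC2A1 went from 471, 467 and 478 to 882, 846 and 849 CPM (0.86, adjusted p = 5.28e-16) and SLC2A3 from 440.0, 429.9 and 442 to 939.5, 961 and 971 CPM (1.13, adjusted p = 1.28e-17). Other isoforms of these steps did not pass the test: the phosphofructokinase PFKL had an estimate of 0.024, the liver pyruvate kinase PKLR of −0.063 and the liver glucose transporter SLC2A2 of −0.036 (adjusted p of 0.553, 0.563 and 0.759).

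Genes around pyruvate and glucose storage moved in both directions. PDK1, a kinase that shuts off pyruvate dehydrogenase, rose from 16.9, 16.9 and 15.7 to 33.7, 34.8 and 33.2 CPM (1.04, edgeR adjusted p = 2.05e-11), and it was the only one of 13 genes of this enzyme's control that was higher. Lower were 6 of the 13, and among them PDK2 fell by 0.55 and the pyruvate carrier subunit MPC2 fell by 0.85 (adjusted p of 2.01e-06 and 7.72e-09). In gluconeogenesis, G6PC1 was the only one of 7 genes that was higher and 4 were lower (median −0.25). PCK1, the cytosolic phosphoenolpyruvate carboxykinase, was at 2.44, 2.96 and 2.34 CPM and at 1.78, 1.80 and 1.51 CPM (−0.60, standard error 0.17, adjusted p = 0.00888), and without HepG2 0 h replicate 2 its estimate was −0.49 with an adjusted p of 0.0545. Its mitochondrial counterpart PCK2 fell by 0.36 (adjusted p = 1.92e-09). The glycogen branching enzyme GBE1 rose by 0.63 (adjusted p = 3.54e-10), while the glycogen-targeting phosphatase subunit PPP1R3C had an estimate of 0.16 (adjusted p = 0.19). Of 15 tested glycogen genes, 5 were higher and 4 lower. Of 9 genes of pH control and lactate transport, 5 were higher and none was lower, with the lactate exporter SLC16A3 at 402, 397 and 407 CPM and then 764, 735 and 735 CPM (0.89, adjusted p = 8.19e-16).

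Among 19 genes of secreted factors that hypoxia is known to affect, 13 were higher and 1 was lower, 9 were past both limits, and the list median was 0.96. IGFBP3, a binding protein of insulin-like growth factors, was at 3.85, 3.41 and 3.89 CPM at 0 h and at 14.5, 16.9 and 14.5 CPM at 24 h (2.04, standard error 0.07, edgeR adjusted p = 1.90e-13). The matricellular protein gene CCN1 rose by 1.45 (adjusted p = 2.99e-13). VEGFA, the main growth factor of blood vessels, was at 48.7, 51.2 and 49.1 CPM and at 99.2, 97.4 and 93.4 CPM (0.96, standard error 0.04, adjusted p = 2.00e-13), just under the limit on the fold change. ANGPTL4, an inhibitor of lipoprotein lipase, and the vasodilator peptide gene ADM rose by 1.00 and 1.07. PGF, a relative of VEGFA, was the gene that was lower (−0.40, adjusted p = 2.20e-04). EPO, the gene of the hormone erythropoietin, through which HIF was found, was at 5.06, 4.55 and 6.18 CPM at 0 h and 5.33, 5.77 and 6.35 CPM at 24 h, and the groups overlapped (0.14, standard error 0.10, adjusted p = 0.33). Without HepG2 0 h replicate 3, which was the highest at 0 h, the estimate for EPO was 0.28 with an adjusted p of 0.0349.

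Collagen-modifying enzymes, several of which use oxygen themselves, were higher in 13 of 17 tested genes and lower in none, with a list median of 0.41. Those past both limits were LOX, its relative LOXL3 and P4HA1, a subunit of collagen prolyl hydroxylase. LOXL3 was at 2.92, 2.27 and 2.89 CPM and then 10.2, 11.8 and 11.7 CPM (2.06, edgeR adjusted p = 7.20e-10), and exons on the opposite strand overlap 19.3% of its exon bases. P4HA1 was at 83.1, 85.8 and 83.2 CPM and then 165, 172 and 176 CPM (1.02, adjusted p = 9.64e-16). P4HA2, the lysyl hydroxylase PLOD2 and the oxidase ERO1A of the endoplasmic reticulum rose by 0.81, 0.67 and 0.75. Of 23 histone demethylases and other chromatin enzymes that use oxygen, 8 were higher and 3 lower, none past both limits. KDM3A and KDM4B, which are known HIF targets, rose by 0.56 and 0.33, and KDM4A fell by 0.61 (adjusted p of 3.25e-08, 3.91e-07 and 4.39e-08). BNIP3 and BNIP3L, receptors for the removal of mitochondria, rose by 0.91 and 0.86 (edgeR adjusted p of 2.30e-13 and 4.87e-12). The autophagy receptor SQSTM1 fell by 0.61 (edgeR adjusted p = 1.98e-12). Of the 16 mitophagy and autophagy genes, 11 did not pass the test, 3 (18.8%) were higher and 2 (12.5%) lower. Of all tested genes, 11.4% were higher and 18.3% lower.

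Genes of the respiratory chain moved in opposite directions by genome. Of the 13 mRNAs of the mitochondrial genome, 11 were higher and 1 was lower at 24 h, with a median of 0.32. Of 76 nuclear genes for subunits of the chain, 3 were higher and 38 were lower, with a median of −0.20. MT-CO1, a subunit of cytochrome oxidase, was at 19837, 20287 and 20080.3 CPM at 0 h and 27548, 27790.1 and 27386 CPM at 24 h (0.46, edgeR adjusted p = 5.77e-12), MT-ND1 rose by 0.46 and MT-CYB by 0.14. MT-CO2 was the mRNA that was lower (−0.20, adjusted p = 6.81e-07). The ribosomal RNAs of mitochondria, looked at after their values were seen, were lower too: MT-RNR2 fell by 0.39 and MT-RNR1 fell by 0.54 (adjusted p of 3.26e-12 and 4.36e-11). Among the nuclear subunits the log2 fold changes lay between −0.59 for NDUFS7 of complex I and 0.39 for ATP5F1E of the ATP synthase. Of 6 genes known for swaps of subunits in low oxygen, 2 were higher and 1 was lower; the switch subunit COX4I2 was at 0.00, 0.00 and 0.00 CPM at 0 h and 0.247, 0.0563 and 0.00 CPM at 24 h, too low for a fold change. COX4I2 counted among the 2 higher genes (adjusted p = 0.0275) and was not past the adjusted p limit in 6 of 12 alternatives, with an adjusted p of up to 0.14. Of 79 cytosolic ribosomal protein genes, 50 were higher and 4 were lower, with a median of 0.20.

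Most lists of lipid metabolism held more lower than higher genes, as did all tested genes, of which 5850 passed the test and 3606 of these were lower. Of 28 genes of fatty acid oxidation, 18 were lower and 2 were higher, with a median of −0.27. The carnitine carrier SLC25A20 fell by 0.83 and ACADSB, an acyl-CoA dehydrogenase, fell by 0.85 (edgeR adjusted p of 1.08e-07 and 1.93e-10). CPT1A, which admits fatty acids to mitochondria, had an estimate of −0.10 (adjusted p = 0.0141). It was not past the test in 4 of 13 alternatives, with an adjusted p of 0.0733 without HepG2 24 h replicate 2 and of 0.149 with only the libraries of the groups compared. The lipid droplet and triglyceride list held 10 lower and 3 higher genes of 25 (median −0.25). DGAT1 and DGAT2, both of which complete the synthesis of triglyceride, were lower past both limits. DGAT1 was at 215, 218 and 213 CPM at 0 h and at 82.5, 83.4 and 87.6 CPM at 24 h (−1.35, standard error 0.03, adjusted p = 6.24e-16), and DGAT2 was at 145, 146 and 146 CPM and at 68.3, 66.5 and 66.2 CPM (−1.12, standard error 0.05, adjusted p = 1.08e-12). The droplet coat protein PLIN2 moved the other way, from 183, 178 and 191 to 377, 372 and 378 CPM (1.03, standard error 0.02, adjusted p = 1.05e-16). In none of these 3 genes did the groups overlap. HILPDA, an inhibitor of lipolysis that HIF is known to raise, had an estimate of 0.26 (adjusted p = 0.0134), which became 0.15 with an adjusted p of 0.109 without HepG2 24 h replicate 3 and 0.24 with 0.0549 without HepG2 0 h replicate 2.

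Fatty acid uptake and activation was mixed, with 6 of 14 tested genes higher and 2 lower (median 0.10). FABP1, the fatty acid binding protein of liver, was at 36.4, 31.9 and 34.5 CPM and then at 110.1, 122 and 111 CPM (1.74, edgeR adjusted p = 7.02e-12), while the acyl-CoA synthetase ACSL1 fell by 0.43 and the fatty acid receptor CD36 fell by 0.76 (adjusted p of 1.12e-05 and 4.74e-07). VLDLR, a lipoprotein receptor, rose by 0.56. Fatty acid synthesis had 9 lower and 1 higher of 15 tested genes (median −0.19). The higher gene was the desaturase SCD (0.19), while the synthase FASN fell by 0.19 and ACSS2, which makes acetyl-CoA from acetate, fell by 0.77 (adjusted p of 1.55e-08, 2.69e-05 and 5.41e-13). Cholesterol genes were lower in 16 and higher in 3 of 25, with a median of −0.25. The lanosterol synthase LSS fell by 0.61, whereas INSIG2, which restrains the pathway, rose by 0.52 (adjusted p of 1.48e-11 and 1.99e-10). Of the receptors, PPARG rose from 9.53, 8.13 and 9.48 to 15.1, 19.4 and 16.5 CPM (0.91, adjusted p = 1.53e-07), its coactivator PPARGC1A rose by 0.46, and PPARA had an estimate of −0.051 (adjusted p = 0.533). Of 13 tested receptors and coregulators of this group, 8 were lower and 2 higher (median −0.16).

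Products of the hepatocyte did not move as a block. Among 31 plasma proteins, 16 were higher and 7 were lower, with a median of 0.14. Complement C3 rose by 0.58, the carrier AHSG by 0.91 and ITIH3 by 0.63, while the heme carrier HPX was at 44.5, 43.6 and 44.1 CPM at 0 h and at 18.2, 17.2 and 17.9 CPM at 24 h (−1.31, standard error 0.07, edgeR adjusted p = 6.54e-11) and antithrombin, SERPINC1, fell by 0.71 (adjusted p = 1.63e-10). Of the fibrinogen chains, FGA fell by 0.30 and FGG fell by 0.42 while FGB rose by 0.30 (adjusted p of 1.01e-10, 8.47e-11 and 7.78e-08). The apolipoproteins were mixed as well, with 7 of 17 lipoprotein genes higher and 4 lower (median 0.11). APOA4, the gene edited in the other line of the study, was at 8.95, 9.67 and 8.46 CPM at 0 h and 19.8, 19.8 and 21.0 CPM at 24 h (1.16, standard error 0.08, adjusted p = 1.65e-09), and it was the only gene of this list past both limits. Exons on the opposite strand overlap 43.1% of its exon bases. APOM rose by 0.90 and MTTP, which loads lipid onto lipoproteins, by 0.54, while APOA1 fell by 0.14 and the hepatic lipase LIPC fell by 0.46 (adjusted p of 3.47e-08, 7.73e-09, 9.91e-04 and 2.94e-07).

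Transcription factors of the hepatocyte were mostly lower, with 10 of 17 lower and 1 higher (median −0.21). CEBPA was at 228, 218 and 230.5 CPM and then 115, 117 and 114 CPM (−0.97, edgeR adjusted p = 4.55e-12), with 43.4% of its exon bases overlapped by exons on the opposite strand. HNF4A fell by 0.22, FOXA1 fell by 0.57 and the bile acid receptor NR1H4 fell by 0.45 (adjusted p of 1.46e-07, 2.77e-09 and 2.10e-06). Of 15 tested bile acid genes, 8 were lower and 1 was higher, with a median of −0.45, the lowest of the lists shown in the plot of gene lists. KLB, the coreceptor for FGF19, was at 228, 233 and 225 CPM and then 106, 105 and 106 CPM (−1.11, adjusted p = 7.63e-16), and AKR1D1, which reduces the sterol ring, fell by 1.04. CYP7A1, the rate-limiting enzyme of bile acid synthesis, was at only 1.38, 0.714 and 1.46 CPM and 0.753, 0.394 and 0.436 CPM, and the groups overlapped (−1.17, adjusted p = 0.00397). BAAT, which conjugates bile acids, was the gene that was higher (1.54, adjusted p = 1.52e-04, from 0.391, 0.690 and 0.940 to 2.16, 1.83 and 1.89 CPM). Among 29 tested genes of drug metabolism, 5 (17.2%) were higher and 8 (27.6%) lower, against 11.4% and 18.3% of all tested genes. The genes past both limits were GSTA1 and GSTA2. CYP3A5, a cytochrome of drug oxidation, had an estimate of 0.027 and CYP1A1 of −0.51 (adjusted p of 0.956 and 0.00364).

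Antioxidant genes were lower in 16 and higher in 2 of 25, with a median of −0.21. NQO1, which reduces quinones, was at 567, 565 and 561 CPM at 0 h and 303, 307 and 312 CPM at 24 h (−0.88, standard error 0.03, edgeR adjusted p = 2.38e-14), and the groups did not overlap. The glutathione peroxidase GPX2 fell by 0.89 and the heme oxygenase HMOX1 fell by 0.52, while mitochondrial SOD2 rose by 0.74 (adjusted p of 9.94e-16, 9.77e-09 and 7.09e-12). Iron genes were split, with 7 higher and 9 lower of 20 tested (median −0.086). CP, the plasma ferroxidase ceruloplasmin, was at 253, 253 and 244 CPM and then 926, 949.9 and 1016 CPM (1.95, adjusted p = 6.78e-19), with 19.4% of its exon bases overlapped on the opposite strand. Transferrin (TF) and its receptor TFRC rose by 0.58 and 0.48, while the ferritin subunit FTL fell by 0.68, its partner FTH1 fell by 0.22 and the exporter SLC40A1 fell by 0.62 (adjusted p of 5.06e-16, 1.27e-10, 6.29e-16, 3.22e-06 and 1.33e-09).

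Chaperones of the endoplasmic reticulum were higher in 12 and lower in 2 of 19 genes (median 0.15), led by HSPA5 at 0.61 and HSP90B1 at 0.61 (edgeR adjusted p of 6.81e-15 and 1.39e-13). Of 20 tested ATF4 targets, 10 were lower and 3 were higher (median −0.12). The serine synthesis gene PHGDH fell by 0.61, PSAT1 fell by 0.39 and PSPH fell by 0.69, the stress protein gene NUPR1 fell by 1.42, and GDF15, a stress hormone, rose by 0.56 (adjusted p of 1.73e-12, 1.36e-08, 1.03e-10, 1.27e-12 and 8.08e-12). DDIT3 and ASNS, often used as markers of this response, had estimates of 0.28 and −0.051 (adjusted p of 0.221 and 0.499), and TRIB3 had −0.12 (adjusted p = 0.0034).

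Genes of the cell cycle were lower by small amounts. Of 38 genes of DNA replication, 27 were lower and none was higher (median −0.30), and of 25 genes of mitosis 22 were lower and none was higher (median −0.35), with no gene of either list past the limit on the fold change. MCM2 of the replicative helicase was at 282, 286 and 291 CPM at 0 h and 216, 221 and 216 CPM at 24 h (−0.40, edgeR adjusted p = 4.13e-09), TK1 fell by 0.61 and the cyclin gene CCNB1 fell by 0.32 (adjusted p of 1.42e-08 and 5.08e-06). The proliferation marker MKI67 fell by 0.24 and RRM2, which supplies nucleotides for DNA, fell by 0.29 (adjusted p of 1.52e-04 and 6.97e-06). Of 13 tested genes of G1 control, 8 were lower and 2 higher (median −0.25), and the inhibitor CDKN1A was among those that fell (−0.48, adjusted p = 4.45e-11).

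Of 20 immediate early genes, 12 were higher and 1 was lower, with a median of 0.44. IER3 was the gene past both limits, at 129, 126 and 130.4 CPM and then 322, 332 and 318 CPM (1.34, edgeR adjusted p = 5.58e-17). JUN and EGR1 rose by 0.46 and 0.42, and FOS, at 0.878, 1.06 and 0.783 CPM and 1.49, 1.19 and 2.37 CPM, had an estimate of 0.89 (adjusted p = 0.0149), which was not past 0.05 without HepG2 24 h replicate 3 (0.56, adjusted p = 0.132) or without HepG2 0 h replicate 3 (0.79, adjusted p = 0.0639). In the IL-6 and STAT3 list, 4 of 16 tested genes (25.0%) were higher and 5 (31.25%) lower, with a list median of −0.23. Of all tested genes, 11.4% were higher and 18.3% lower. The acute phase inhibitor SERPINA3 was at 1132, 1099 and 1087 CPM and then 2265, 2293 and 2252 CPM (1.04, edgeR adjusted p = 7.63e-16). Of its exon bases, 31.8% are overlapped on the same strand. SOCS3, which dampens the pathway, rose by 0.91 (edgeR adjusted p = 3.10e-04). Of 14 tested noncoding RNAs known from hypoxia or hepatoma, 7 were higher and none lower (median 0.36). MIR210HG, the host transcript of the hypoxia-induced miR-210, was at 1.35, 0.702 and 1.05 CPM and then 3.00, 3.06 and 3.04 CPM (1.55, adjusted p = 3.33e-06), and NEAT1 rose by 0.43.

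The make-up of the libraries shifted in a few abundant genes, which were chosen after their values were seen. FN1, fibronectin, held 1.67%, 1.66% and 1.66% of all counts in the 0 h libraries and 2.94%, 2.89% and 2.93% at 24 h, which is a log2 fold change in CPM of 0.89 (standard error 0.02, edgeR adjusted p = 5.05e-18). AHSG went from 0.762% to 1.37% of counts on average, and IGF2, a fetal growth factor, from 0.154% to 0.354% (1.27 in CPM, adjusted p = 6.78e-19), with 73.7% of the exon bases of IGF2 overlapped by other genes on the same strand. The largest losses of share were in MT-RNR2, from 1.89% to 1.38%, and FTL, from 0.498% to 0.295%. TNS1, which links integrins to the cytoskeleton, was at 45.0, 44.0 and 44.9 CPM at 0 h and 199, 195 and 188 CPM at 24 h (2.12).

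In some changed genes the libraries of a group stood far apart, and BEST1 and PDXP, noticed after their values were seen, are given here. BEST1, a chloride channel, had an estimate of 5.47 (edgeR adjusted p = 0.0254), but it was at 0.427, 0.944 and 0.916 CPM at 0 h and 0.701, 0.563 and 99.98 CPM at 24 h, so a single library was high, and without HepG2 24 h replicate 3 the estimate was −0.27 (adjusted p = 0.938). PDXP was at 82.4, 81.8 and 8.28 CPM at 0 h and 6.75, 9.82 and 6.62 CPM at 24 h (−2.89, adjusted p = 0.00641), with the third library at 0 h within the range of those at 24 h. Exons of other genes on the same strand overlap 62.5% of its exon bases, so its reads could belong to them. Such overlap is 44.6% in ASNS, 20.2% in RRM2, 13.2% in HILPDA and 10.9% in DGAT1. Neither BEST1 nor PDXP met the rule for the largest changes.

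Whether the state at 24 h was kept was read from the HepG2 libraries at 48 h, which were compared with those at 24 h. Between 24 h and 48 h, 418 genes (2.12%) were changed, 136 higher and 282 lower, and at an adjusted p under 0.05 alone 3685 (18.7%) were higher and 2341 (11.9%) were lower. As both comparisons use the 24 h libraries, values are given side by side. G6PC1 was at 11.3 ± 1.25, 76.3 ± 1.63 and 7.11 ± 0.547 CPM (SD, n = 3) across 0 h, 24 h and 48 h, a change from 24 h to 48 h of −3.42 (edgeR adjusted p = 4.38e-17). IGFBP1 was at 297 ± 8.08, 2211 ± 16.8 and 800.1 ± 97.5 CPM at these times (−1.47 from 24 h to 48 h), and CA9 at 12.1 ± 1.49, 204 ± 4.64 and 96.1 ± 4.61 CPM (−1.09). FABP1 and CCN1 were near their 0 h levels again at 48 h, with 36.5 ± 2.21 and 20.1 ± 0.171 CPM against 34.3 ± 2.29 and 24.0 ± 0.928 CPM at 0 h. GNMT was at 13.8 ± 0.769, 2.18 ± 0.184 and 10.3 ± 1.04 CPM, and SSTR3 at 8.05 ± 0.468, 2.40 ± 0.105 and 11.6 ± 0.940 CPM, so SSTR3 ended above its 0 h level.

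Most HIF targets were higher still at 48 h. Of the 37 in the list, 31 were higher and 3 lower at 48 h than at 24 h, and the list median relative to 0 h went from 0.86 at 24 h to 1.30 at 48 h. PFKFB4 was at 54.4 ± 1.78, 116 ± 0.633 and 395 ± 1.62 CPM at 0 h, 24 h and 48 h (1.77 from 24 h to 48 h, edgeR adjusted p = 4.37e-18), and HK2, PDK1 and ADM rose further by 0.97, 1.33 and 1.36. Genes that had not passed the test at 24 h rose after it: EGLN1 by 1.41, PPP1R3C by 1.64, EPO by 1.20 and DDIT4 by 0.81 (adjusted p of 3.49e-13, 2.77e-11, 1.98e-08 and 6.26e-11). LDHA rose by a further 0.19 only, and P4HA1 had an estimate of 0.033 (adjusted p of 4.17e-07 and 0.412). The 13 mitochondrial mRNAs were all lower at 48 h than at 24 h (median −0.76). DNA replication and mitosis genes were higher at 48 h than at 24 h in 32 of 38 and 25 of 25, with medians of 0.43 and 0.51, and 33 of the 76 nuclear respiratory chain genes were higher and none lower.

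**Figure D3:**
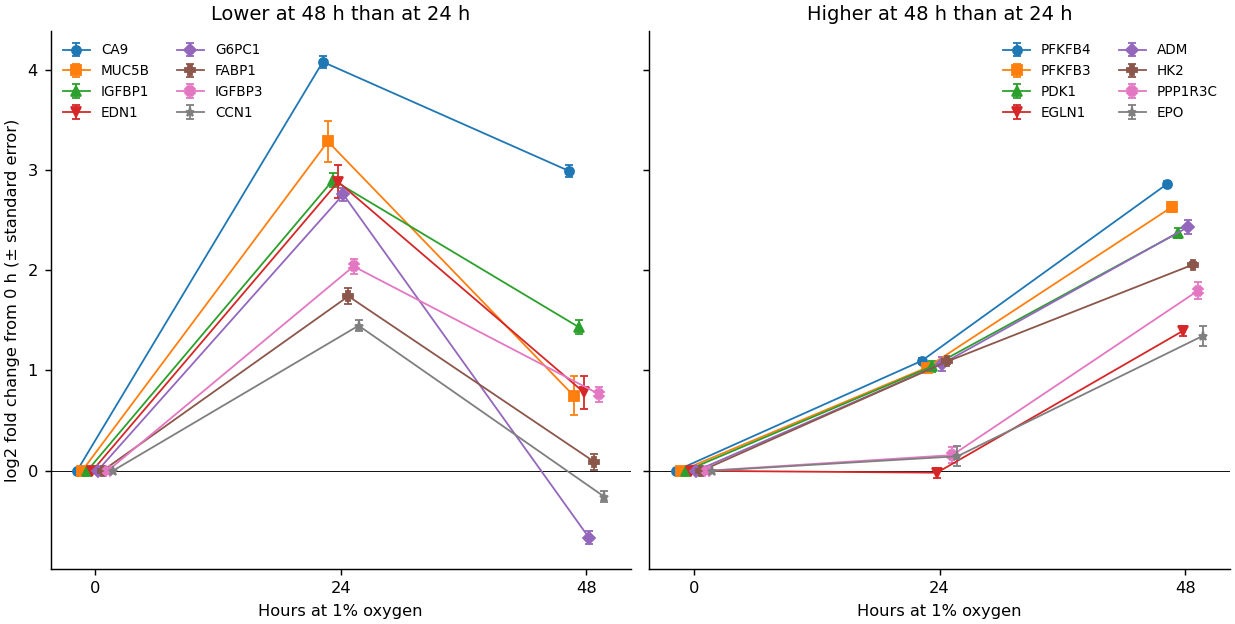
log2 fold change from 0 h (± standard error of the edgeR fit) against hours at 1% oxygen in HepG2, for 8 genes that were lower at 48 h than at 24 h (left) and 8 that were higher (right), with points shifted sideways for clarity. The genes were picked to show both courses: at 24 h the left genes sit between 1.45 and 4.08, while EGLN1, PPP1R3C and EPO on the right are near 0 at 24 h and reach 1.34 or more at 48 h.

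The APOA4-KO cells went through the same 24 h at low oxygen, with 0 h libraries of their own. APOA4 itself was at 7.71 ± 0.688 CPM at 0 h and 7.94 ± 0.381 at 24 h in that line (SD, n = 3), so reads assigned to it were present and it did not pass the test for a change (0.041, edgeR adjusted p = 0.741). Between replicates of APOA4-KO at 24 h the Pearson correlation was 0.992 for the pairs with replicate 1 and 0.995 for the other pair, and without replicate 1 the counts of 1160 and 512 given next were 1325 and 603. The lines are compared as single lines, so the edit cannot be told apart from anything else in which they differ. In APOA4-KO, 1160 genes (5.88%) were changed at 24 h. Of the 608 genes changed in HepG2, 238 were changed in APOA4-KO too, which is 39.1% of the HepG2 list and 20.5% of the APOA4-KO list, and 233 of them went the same way. Across all tested genes, which are not independent replicates, the log2 fold changes of the lines had a Pearson correlation of 0.232 and a Spearman correlation of 0.358 (19743 genes). These include 6384 genes that averaged no more than 1 CPM in HepG2 at 0 h and at 24 h, and large fold changes are most common at low levels. The difference between the lines in the 24 h change was tested as an interaction: it passed both limits in 512 genes (2.59%) and the adjusted p alone in 6364 (32.2%). Of the 407 genes higher in HepG2, the line difference was negative past both limits in 69 and positive in 9. Of the 201 lower genes, it was positive in 40 and negative in 2; these genes were chosen on their HepG2 change, which is part of the interaction.

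The HIF target list had a median log2 fold change of 1.53 in APOA4-KO against 0.86 in HepG2, and the line difference was positive at an adjusted p under 0.05 in 27 of the 37 and negative in 4. Of all 19743 tested genes, it was positive at that limit in 3322 and negative in 3042. EGLN1 changed by −0.019 in HepG2 and by 1.40 in APOA4-KO (difference 1.42, standard error 0.07, edgeR adjusted p = 5.27e-11), PPP1R3C by 0.16 and 1.86, ADM by 1.07 and 2.51, and PLIN2 by 1.03 and 2.11. For other genes the estimate was lower in APOA4-KO. SLC12A3 changed by 4.14 in HepG2 and by 0.33 in APOA4-KO (difference −3.81, adjusted p = 1.20e-06), EDN1 by 2.88 and 0.67, and G6PC1 by 2.76 and 0.82, with G6PC1 starting from 88.1 ± 3.56 CPM in APOA4-KO against 11.3 ± 1.25 in HepG2. SSTR3, which fell in HepG2, had an estimate of 0.056 in APOA4-KO (difference 1.80, adjusted p = 1.27e-07). PCK1 went in opposite directions and changed by −0.60 in HepG2 and 1.97 in APOA4-KO (difference 2.57, adjusted p = 1.77e-08). The mitochondrial mRNAs had list medians of 0.32 in HepG2 and −1.12 in APOA4-KO, with a negative line difference at an adjusted p under 0.05 in all 13. ANGPTL2, LOX and GSTA2 changed by 2.22, 1.97 and −3.13 in HepG2 and by 2.15, 2.01 and −3.11 in APOA4-KO, with differences of −0.076, 0.038 and 0.018 (standard errors of 0.08, 0.04 and 0.96). The largest positive line differences were in PDE4C, PCK1, GPR146, FAM110C and AREG, with differences from 2.70 down to 1.91. In PDE4C 70.7% of the exon bases are overlapped by other genes on the same strand. In GPR146 50.3% are overlapped by exons on the opposite strand, and its HepG2 24 h libraries stood apart, at 2.84, 2.18 and 0.557 CPM. AREG, a ligand of the EGF receptor, changed by 0.15 in HepG2 (adjusted p = 0.698) and by 2.06 in APOA4-KO (difference 1.91, adjusted p = 9.70e-05).

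**Figure D4:**
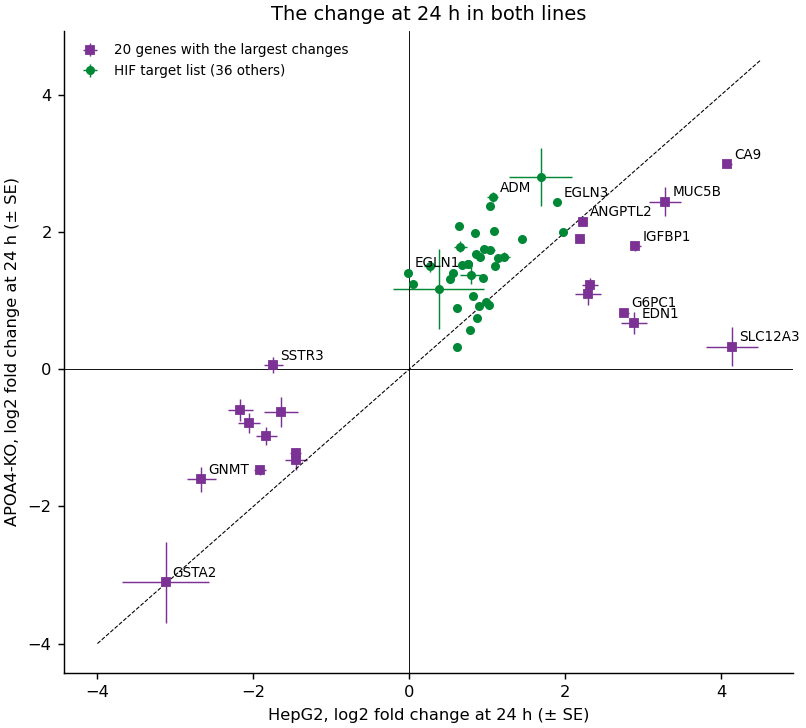
log2 fold change at 24 h (± standard error) in HepG2 (horizontal axis) and APOA4-KO (vertical axis) for the 20 genes with the largest changes in HepG2 (squares) and the 36 other genes of the HIF target list (circles). On the dashed line the changes are equal; most circles lie above it, whereas SLC12A3, EDN1 and G6PC1 lie far below it.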

How the data were processed

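RNA of HepG2 and APOA4-KO cells was sequenced as paired reads of 150 bases. The authors trimmed reads with fastp 0.23.1 and aligned them with HISAT2 2.1.0 to GRCh38.p13. For the counting, the methods name featureCounts of subread 2.0.2 and the submitters' notes name StringTie, and strand and multimapping settings are not given in the sources used here. The main values were the deposited counts per gene, which are whole numbers. The FPKM values, deposited by the authors for 33601 genes, were used for an alternative only, since they follow from the counts and gene lengths.

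Genes were filtered by filterByExpr on the 6 groups, scaled by TMM and fitted over all 18 libraries with a coefficient per group in edgeR 4.0.16 (quasi-likelihood test, R 4.3.3), with Benjamini-Hochberg adjustment over 19743 genes. This test took the place of the DESeq2 test named in the methods, which was run as an alternative (DESeq2 1.42.0), as was limma 3.58.1 on log2(FPKM + 1). A gene was called changed at an adjusted p under 0.05 and a log2 fold change of at least 1 in size. CPM values are counts scaled to a common TMM-adjusted library size, and intervals from the fit cover the spread between libraries only. The fit was tested on simulated data.

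Named genes were the 10 largest increases and decreases that passed the test without overlap of the groups, averaged 500 counts or more where higher and had no library below 10 counts; key genes of each list with up to 3 further changed members; and the 5 largest line differences in each direction by the same limits. The comparison, the lists and these rules were chosen with earlier results of these data known, and other genes were named after their values were seen. Promoters came from RefSeq (GRCh38.p14) and matched by symbol. APOA4-KO at 48 h entered only the shared fit. Some genes are not reported here.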

Additional observations from a re-analysis of the deposited data

Results flagged for a closer look

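The change over 24 h differed between the lines in 512 genes, by an interaction contrast in edgeR that passed both limits, and 38 of the 142 genes named by rule were among them. The values here are that difference, the log2 change in APOA4-KO minus the log2 change in HepG2, each with an adjusted p under 0.05. It was negative in 14 of the 38. These were the transporter SLC12A3 (−3.81), NICN1 (−2.43), the vasoconstrictor gene EDN1 (−2.21), MDFI (−2.09), the mitochondrial mRNAs MT-CO3 (−2.03), MT-CYB (−1.69) and MT-ND1 (−1.64), the glucose-6-phosphatase gene G6PC1 (−1.93), the bile acid enzyme gene BAAT (−1.35), MUC13 (−1.19), APOA4 itself (−1.12), IGFBP1 (−1.11), CA9 (−1.09) and HAL (−1.09). These values compare changes and not levels, and some of these genes also differed between the lines at 0 h. From 0 h to 24 h, CA9 went from 38.4 to 304 CPM in APOA4-KO and from 12.1 to 204 CPM in HepG2. IGFBP1 went from 1100 to 3799 CPM and from 297 to 2211 CPM, so both ended higher in APOA4-KO. SLC12A3 ended lower there, going from 2.37 to 2.97 CPM against 0.454 to 8.04 CPM in HepG2.

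The difference was positive in 24. Among HIF targets and genes of oxygen sensing these included HIF1A (1.00), MXI1 (1.13), DDIT4 (1.19), PFKFB3 (1.35), EGLN1 (1.42) and ADM (1.44). In lipid and glycogen metabolism they were VLDLR (1.01), PLIN2 (1.08), HILPDA (1.23), GBE1 (1.45) and PPP1R3C (1.71). Besides HIF1A, genes that fell in HepG2 and for which the difference was positive were TRIM74 (1.02), GNMT (1.06), HAMP (1.25), TRIM50 (1.27), SYTL2 (1.57), HPX (1.58), SSTR3 (1.80) and PCK1 (2.57). The others were FOS (1.84), AREG (1.91), FAM110C (2.15), GPR146 (2.30) and PDE4C (2.70). Other genes on the same strand overlap 99.6% of the exon bases of NICN1, so its reads could belong to them. Its difference was not past the adjusted p limit in 14 of 19 alternatives.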

How the results depend on the processing

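The counts of changed genes stayed within 1.5 times of the reported ones under all alternatives except limma on log2(FPKM + 1). That fit called 103 genes (63 higher, 40 lower) in HepG2 at 24 h, of which 99 were among the 608, and 51 from 24 h to 48 h, 281 in APOA4-KO and 106 for the line difference. It tested 11333 genes, and the added 1 shrinks the fold changes of low genes (SLC12A3 from 4.14 to 1.05). The other alternatives gave 532 to 665 changed genes at 24 h, and leaving out each HepG2 library gave 538 to 558, of which 459 to 472 were among the 608. The higher genes numbered 358 to 385 and the lower 173 to 196 with a library left out. The median of the HIF target list (0.863) was 0.791 with library size alone, 0.899 with DESeq2 size factors and in DESeq2, 0.914 with only the libraries compared, 0.715 in limma, and 0.855 to 0.898 with a library left out. Medians of 8 lists near 0 changed sign in 27 refits, in 17 of them by less than the spread between replicates. The other 10 were glycogen −0.00616, respiratory chain switch −0.0961 and drug metabolism −0.21 in limma; oxygenase chromatin enzymes −0.0292 and respiratory chain switch −0.0495 with library size alone; mitophagy 0.0431 with only the libraries compared; and MYC network 0.072, drug metabolism −0.0977 and endothelial markers −0.162 without HepG2 0 h replicate 1, and drug metabolism −0.199 without HepG2 24 h replicate 3. With each library left out, the medians of the MYC network, drug metabolism and endothelial markers spanned −0.0385 to 0.072, −0.199 to 0.062 and −0.162 to 0.366, and BEST1 spanned −0.274 (without HepG2 24 h replicate 3) to 6.05. Of 2177 refits of single named genes, 2099 stayed on the same side of the adjusted p limit of 0.05, 71 no longer passed it and 6 newly passed it. Of those that stayed, 27 changed sign in genes that did not pass the test. The limit on the fold change was not part of this count. ANGPTL4 was under that limit in 4 of 13 alternatives and ADM in 3 of 13, while CA9 was under it in none. HepG2 libraries of the same number at 0 h and 24 h did not deviate together (correlations of deviations 0.0307, −0.134 and −0.122 over 12804 genes). For unlike numbers the correlations lay between −0.0535 and 0.168. With 3 libraries in a group, these values cannot decide whether the numbers pair the samples. With the replicate number as a block, 567 genes were changed, 550 of them among the 608. The causes of these shifts were not tested. Depth was alike in all libraries. Low counts limit the genes at or below 3 counts and also genes somewhat above, as low counts were not plain tallies of read pairs. Of the 608 changed genes, 223 averaged no more than 1 CPM in HepG2 at 0 h and at 24 h (3.49% of 6384 such genes).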
